A study of Rattus norvegicus with 4 samples.

Results

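AMPA and kainate receptors are the glutamate-gated cation channels that carry most fast excitatory transmission in the cortex. The genes considered were the 4 that encode AMPA receptor subunits (Gria1 to Gria4) and the 5 that encode kainate receptor subunits (Grik1 to Grik5). Members were all probe sets whose platform gene symbol is one of these 9, which gave 9 of the 720 genes with a symbol on the array and 16 of its 1322 probe sets. Probe sets were taken by symbol, with no cut on their measured values, but the genes were chosen with earlier results of these data known. Neurons were prepared from rat cortex at embryonic day 17 and grown for 14 days in Neurobasal medium with B27 supplement. KCl cultures received 25 mM KCl for 4 h, which depolarizes the membrane, and control cultures received phosphate-buffered saline for 4 h. There were 4 arrays, 2 per group, called KCl 1, KCl 2, control 1 and control 2 after their titles. The description label of all 4 samples, KCl included, speaks of a non-activated state, which conflicts with the titles and treatment protocols of the KCl samples. Separate cultures are not stated for the 2 samples in each group, so every p-value reflects the spread of these samples alone, and that spread may be technical.

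Receptors of both families are tetramers, and which subunits they contain sets how they conduct and where they go. In AMPA receptors, a GluA2 subunit (Gria2) that carries the edited residue of the pore keeps calcium out, while GluA1 (Gria1) is known for activity-dependent insertion at synapses. In kainate receptors, GluK1 to GluK3 (Grik1 to Grik3) can form channels of their own, whereas GluK4 and GluK5 (Grik4 and Grik5) raise glutamate affinity and need a partner from the first set. The AMPA subunit transcripts are also spliced into flip and flop forms, which differ in a short stretch of the ligand-binding part. The annotation used here carries no flip or flop label for any of the 16 probe sets, so probe sets of one gene are compared by identifier.

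The arrays responded to the treatment. Fos, the immediate-early gene used as a check, had 9744.5 and 9883.3 on the KCl arrays, against 719.5 and 646.2 on the control arrays, on its brightest probe set, in the intensity units of the array (arbitrary, linear). Over all 947 probe sets tested with limma, 102 (10.8%) passed at an adjusted p below 0.05, 52 higher and 50 lower after KCl, and the median log2 change was −0.10. Calls numbered 14 without control 1, 11 without control 2 and 178 without KCl 2. By an ordinary t statistic 0 of the 947 had an adjusted p below 0.05, Fos included, so a call lost by that statistic sets no gene apart. A probe set value is called within background at or below 73.7, the highest intensity of 19 probe sets for bacterial and yeast transcripts. For the hexokinase control transcript, the ratio of 3′ to 5′ signal, which tracks RNA integrity, was 2.49 and 2.67 on the KCl arrays and 2.25 and 2.00 on the control arrays. The groups overlapped in the same ratio for Gapdh (1.17 to 1.23) and for β-actin (1.08 to 1.12). The part of these differences in any result below was not tested.

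No AMPA or kainate receptor probe set passed the test, in either direction, but most had lower intensities after KCl. All 16 were bright enough to be tested, and 0 of 16 had a limma adjusted p below 0.05, against 5.28% of all tested probe sets called lower and 5.49% called higher. At an unadjusted limma p below 0.05 the count was 6 of 16, all of them lower after KCl, where 16.3% of all tested probe sets met that mark in that direction. They were both brighter probe sets of Gria1, the brighter one of Gria2, the brighter one of Grik4 and the only ones of Grik2 and Grik5. Some changes depended on a single KCl array. Without KCl 1 the log2 changes were −0.62 for Gria1 (M36418_s_at), −0.26 for Gria2 (M38061_at), −1.80 for Grik4 (X59996mRNA_s_at) and 1.48 for Grik3. For the same probe sets without KCl 2 they were −0.37, −0.58, −0.25 and 0.05. By an ordinary t statistic 1 of 16, that of Grik5, had an unadjusted p below 0.05, against 157 of all 947 tested, in either direction. Both KCl values lay below both control values for 13 of 16 (81.3%), against 36.5% of all tested probe sets, the groups overlapped for 3, and for 0 of 16 did both KCl values lie above both control values (21.4% of all tested). The median log2 change over the 16 was −0.45, and −0.29 without KCl 2. Those 13 covered 8 of the 9 genes through the brightest probe set, Grik3 being the exception, against 213 of all 570 genes tested. Among the 13 were S94371_g_at of Gria4 and the probe set of Grik1, both within background on all 4 arrays. Of the 16 probe sets, 9 were above background on all 4 arrays. In RNA from whole cultures, fewer cells of a type and less RNA per cell cannot be told apart.

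**Figure D1:**
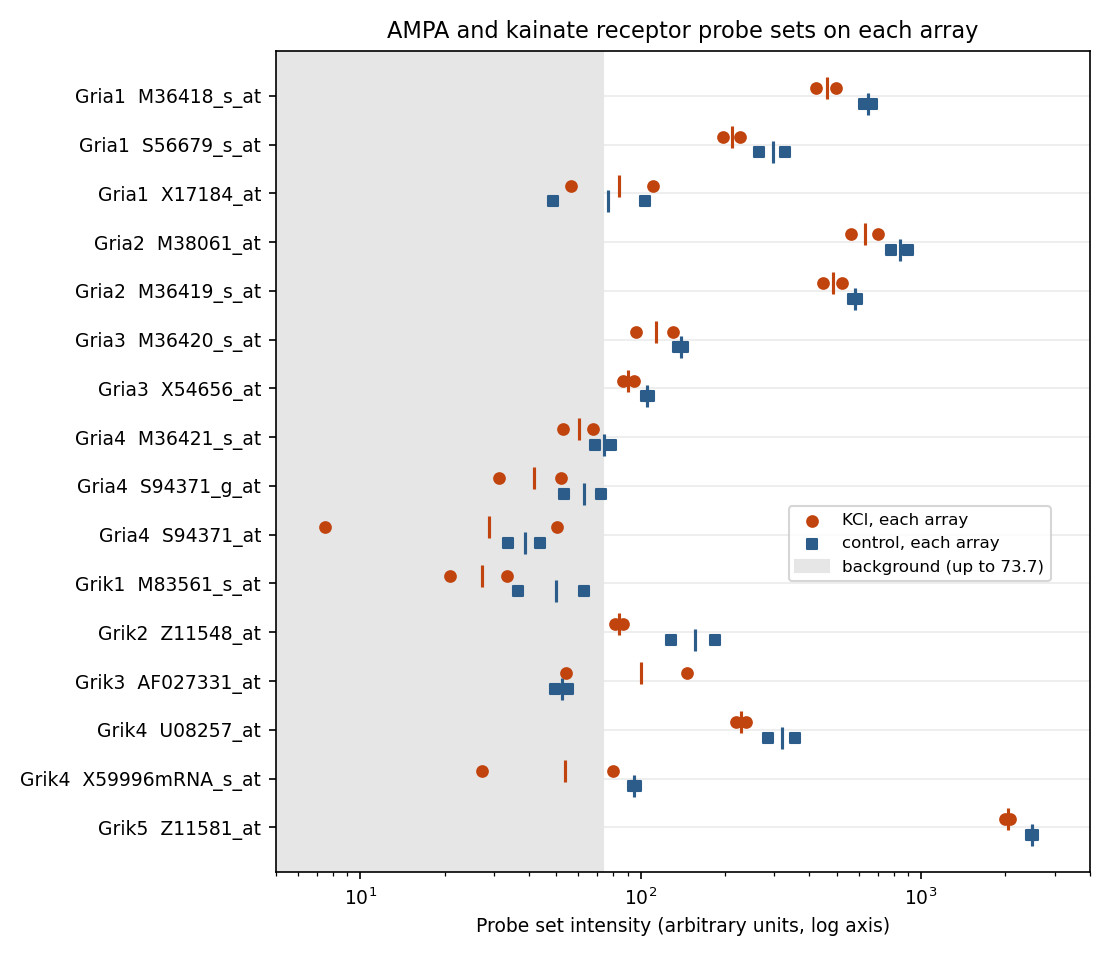
Intensity of each of the 16 probe sets (rows) on each of the 4 arrays, on a log axis in arbitrary units. Circles are KCl arrays, squares are control arrays, vertical ticks are group means (n = 2), and the grey band is background up to 73.7. For 13 rows both circles lie left of both squares.

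Among the AMPA subunits, Gria1 was lower after KCl by a like amount on the 2 probe sets that were above background. On probe set M36418_s_at, Gria1 had 499.7 and 422.2 on the KCl arrays and 671.2 and 624.7 on the control arrays, and the groups did not overlap. Its mean was 461 ± 55 after KCl and 648 ± 33 in control (SD, n = 2 arrays each), and the log2 change was −0.50 ± 0.15 (limma's SE; adjusted p = 0.071). This was the smallest adjusted p of the 16. On S56679_s_at, Gria1 had 225.4 and 196.7 on the KCl arrays and 264.7 and 328.4 on the control arrays, again without overlap, with a log2 change of −0.49 ± 0.19 (limma adjusted p = 0.16). The third Gria1 probe set, X17184_at, gave 56.7 and 110.8 on the KCl arrays and 103.7 and 48.8 on the control arrays, so 1 array of each group lay within background and the groups overlapped. Its log2 change of 0.16 ± 0.48 had a 95% interval from −0.95 to 1.26, which holds the changes of the other pair.

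Gria2, whose product decides the calcium permeability of AMPA receptors, was also lower on both of its probe sets. On M38061_at, Gria2 had 562.8 and 700.3 on the KCl arrays and 898.9 and 783.3 on the control arrays. The groups did not overlap, and the log2 change was −0.42 ± 0.15 (limma adjusted p = 0.13). On M36419_s_at, Gria2 had 521.0 and 446.8 on the KCl arrays and 593.3 and 571.7 on the control arrays, with a log2 change of −0.27 ± 0.14 (limma adjusted p = 0.27). KCl 1 was the lower KCl array on the first of these probe sets and KCl 2 on the second. On both, every KCl value stood below every control value.

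Gria3, the partner of GluA2 in many cortical AMPA receptors, was dimmer but above background on all arrays. Probe set M36420_s_at had 130.8 and 96.0 on the KCl arrays and 136.3 and 141.4 on the control arrays, and X54656_at had 94.5 and 86.5 against 104.5 and 107.1 in control. Their log2 changes were −0.31 ± 0.26 and −0.23 ± 0.28 (limma adjusted p = 0.51 and 0.66). The first was −0.09 without KCl 2 and −0.53 without KCl 1. Neither overlapped between groups, yet the 95% intervals of both took in 0, running from −0.91 to 0.29 and from −0.86 to 0.40.

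Gria4, an AMPA subunit known from fast-spiking inhibitory neurons, lay at or near background on its 3 probe sets. Its brightest, M36421_s_at, had 67.9 and 52.8 on the KCl arrays and 78.7 and 69.0 on the control arrays, so that control 1 alone was above background. Probe sets S94371_g_at and S94371_at, designed from one and the same sequence, lay within background on all 4 arrays. Log2 changes of the 3 ran from −0.99 to −0.30 with SEs of 0.37 to 0.97, and limma adjusted p-values from 0.47 to 0.66. KCl 2 read 7.5 on S94371_at, the lowest intensity of any member.

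Of the kainate subunits, Grik5, which encodes the high-affinity subunit GluK5, was measured with the smallest error. Grik5 had 2081.5 and 1998.1 on the KCl arrays and 2471.9 and 2507.3 on the control arrays. Means were 2040 ± 59 after KCl and 2490 ± 25 in control (SD, n = 2 arrays each), a ratio of 0.82, and the arrays of a group were closer to each other than to any array of the other group. The log2 change was −0.29 ± 0.10 (limma adjusted p = 0.12), with a 95% interval from −0.52 to −0.05. It was the least scattered of the 16 and also among the smaller changes.

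Grik4, which encodes the other high-affinity subunit, GluK4, was lower on both of its probe sets. On U08257_at, Grik4 had 218.4 and 238.4 on the KCl arrays and 285.2 and 354.4 on the control arrays, with a log2 change of −0.48 ± 0.18 (limma adjusted p = 0.15). On X59996mRNA_s_at it had 80.0 and 27.3 on the KCl arrays and 93.7 and 96.2 on the control arrays, so KCl 2 was within background. That fold is imprecise, with a log2 change of −1.02 ± 0.52 (limma adjusted p = 0.24), which was −0.25 without KCl 2 and −1.80 without KCl 1.

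Grik2, which encodes the channel-forming subunit GluK2, had the largest log2 change in size among members above background on every array. It had 86.6 and 81.4 on the KCl arrays and 128.9 and 184.5 on the control arrays. The KCl values stood just over the background limit and close together, and the control values were apart from each other. Means were 84.0 ± 3.7 after KCl and 157 ± 39 in control (SD, n = 2 arrays each), with a log2 change of −0.88 ± 0.28 (limma adjusted p = 0.089) and a 95% interval from −1.52 to −0.23.

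Grik1, the gene of GluK1, lay within background on all 4 arrays, with 20.9 and 33.5 on the KCl arrays and 63.0 and 36.6 on the control arrays (log2 change −0.86 ± 0.62; limma adjusted p = 0.43). Grik3, the gene of GluK3, was the only member whose brightest probe set did not have both KCl values below both control values. Grik3 had 54.3 and 146.0 on the KCl arrays and 55.3 and 49.6 on the control arrays. Only KCl 2 exceeded background, and the log2 change of 0.77 ± 0.49 (limma adjusted p = 0.37) was 0.05 without that array.

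**Figure D2:**
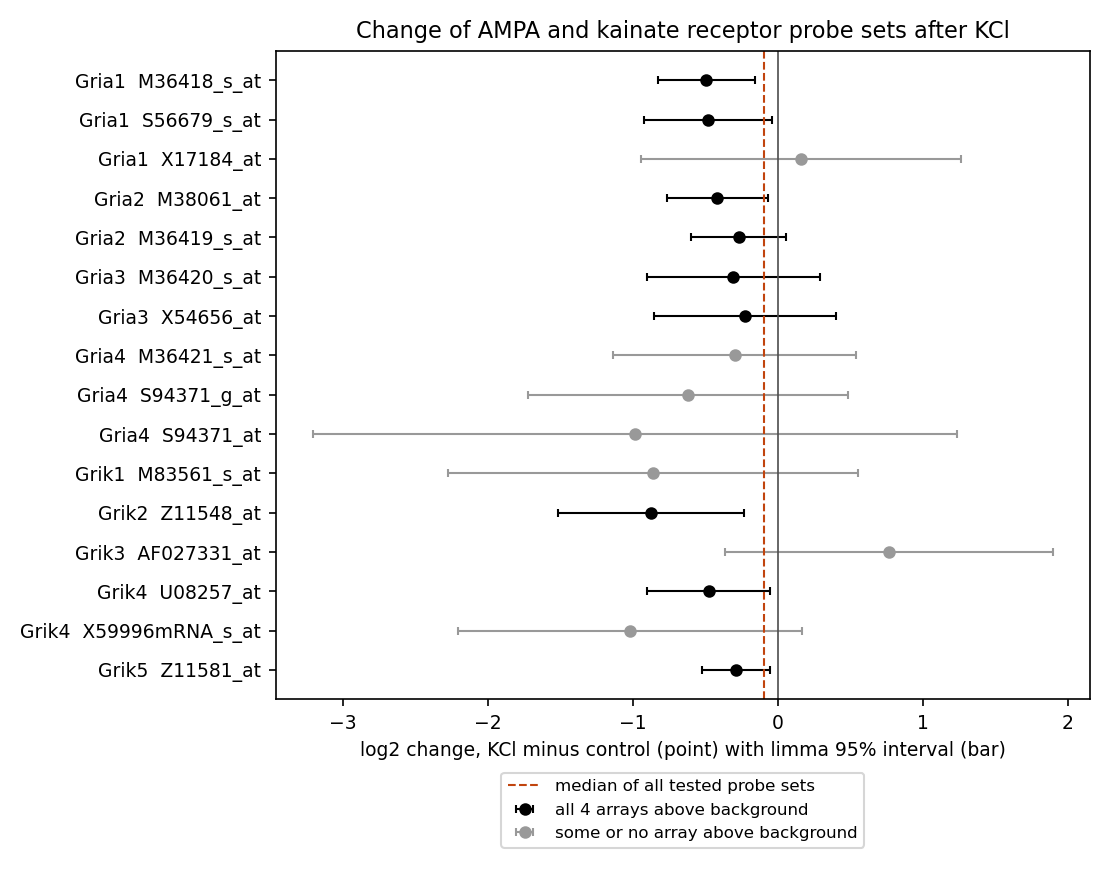
Log2 change (KCl minus control) of each of the 16 probe sets with limma's 95% interval, unadjusted for the number of probe sets. Black marks probe sets above background on all 4 arrays, grey the others, and the dashed line is the median of all tested probe sets (−0.10). The 9 black points lie between −0.88 and −0.23, and the grey intervals are wider.

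The order of the subunits by intensity is a reading of these probes and not an order of transcript numbers, because probe sets differ in how strongly they bind. With the brightest probe set of each gene, the control arrays put Grik5 first, followed by Gria2, Gria1 and Grik4, with no overlap between neighbours. Grik2 and Gria3 came next and overlapped on the control arrays, as did Grik3 and Grik1 at the bottom, while Gria4 stood between these pairs. On the KCl arrays the first 4 kept their places on both arrays. Further down, Gria3 stood above Grik2 on both KCl arrays without overlap, and Grik3 stood above both of them on KCl 2 and not on KCl 1. Grik1 was the dimmest on both KCl arrays and on control 2.

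Whether the subunits moved unequally was read from ratios within an array, in which a scaling of the whole array cancels. The ratio of Gria1 to Gria2 was 0.888 and 0.603 on the KCl arrays and 0.747 and 0.798 on the control arrays, so the KCl values lay on either side of the control values. The ratio of Grik2 to Grik5 was 0.0416 and 0.0407 on the KCl arrays, below the 0.0521 and 0.0736 on the control arrays. The ratio of Grik3 to Grik5 was 0.0261 and 0.0731 on the KCl arrays, above the 0.0224 and 0.0198 on the control arrays, with Grik3 within background on 3 of the 4 arrays. In all 7 ratios were compared, and 5 of them overlapped between groups. Ratios of Grik2 and Grik3 to Grik5 had an exact two-sided permutation p of 0.33 (1.0 after adjustment over the 7), which is the smallest that 2 arrays against 2 allow, so no ratio could pass. The log2 ratio of Gria1 to Gria2 differed by −0.08 between KCl and control.

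Probe sets of one gene were not called different from each other in any member. Across the array, 418 pairs of tested probe sets shared 1 symbol, and 1 of them (0.239%) had a changed ratio at a limma adjusted p below 0.05, with 54 at an unadjusted p below 0.05. Of the 9 pairs within Gria1, Gria2, Gria3, Gria4 and Grik4, limma called 0, and 0 reached an unadjusted p below 0.05. The narrowest interval was that of Gria2, where the log2 ratio of M36419_s_at to M38061_at differed by 0.15 ± 0.21 between KCl and control, with a 95% interval from −0.39 to 0.68. For the 2 brighter Gria1 probe sets the difference was −0.01 ± 0.22, with an interval from −0.56 to 0.54. The other 7 pairs had intervals more than 2 log2 units wide.

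**Figure D3:**
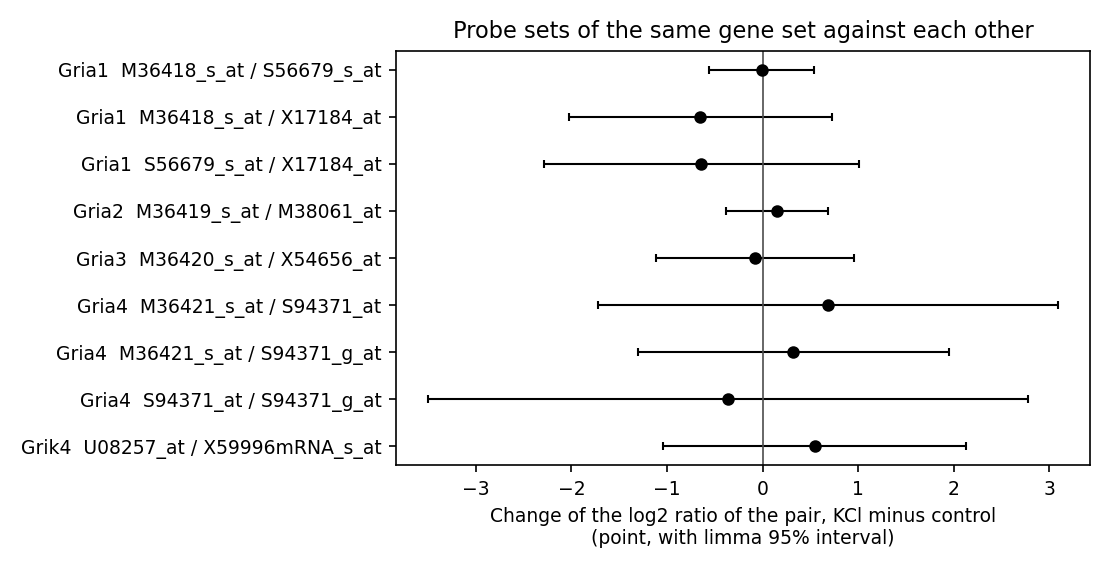
Change (KCl minus control) of the log2 ratio of each pair of probe sets of one gene, with limma's 95% interval, for the 9 pairs among the members. All intervals include 0, and the narrowest are those of Gria2 and of the brighter pair of Gria1.

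Related genes were described from lists by the brightest probe set of each gene, beside a median log2 change of −0.42 over the 9 AMPA and kainate receptor genes (8 of 9 below 0) and of −0.09 over all 570 genes tested (59.8% below 0). The NMDA receptor genes, which encode the calcium-permeable glutamate receptors of synaptic plasticity, had a median of 0.08, with 2 of 6 genes below 0. In limma 0 of their 12 probe sets passed and 1 had an unadjusted p below 0.05 (0 by an ordinary t statistic). That was probe set U11418_s_at of Grin1, the obligatory subunit, at −0.61 ± 0.19 (limma adjusted p = 0.080), while the brighter S39221_g_at of Grin1 had 0.13 ± 0.16. Without KCl 2, Grin1 passed as lower on 1 probe set. Grin3a, a subunit that lowers calcium flow, had the next smallest p on AF061945_at, with a log2 change of 0.44 ± 0.21 (limma adjusted p = 0.24), while its brightest probe set, U29873_at, overlapped between groups and had −0.04 ± 0.24. Grid1, the only delta receptor gene tested, had 0.02 ± 0.17.

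Of 6 metabotropic glutamate receptor genes, 1 passed as lower, on a less bright probe set. That was 1 of 8 probe sets, against 5.28% of all tested called lower. Grm7, a presynaptic receptor that restrains transmitter release, fell on D16817_g_at to 301.0 and 305.0 on the KCl arrays, against 497.5 and 482.9 on the control arrays (log2 change −0.69 ± 0.15; limma adjusted p = 0.019). It did not pass without control 1, without control 2, with the replicate number as a block, without the intensity trend or by an ordinary t statistic. Its brightest probe set, D16817_at, had −0.43 ± 0.16 (limma adjusted p = 0.13). The gene with the next smallest p, Grm2, had 0.33 ± 0.27, and the median of the 6 genes was 0.18.

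The partner list covered auxiliary subunits, trafficking proteins and scaffolds of AMPA and kainate receptors, of which 6 of 34 genes were tested. No probe set passed in limma (0 of 10), and 5 of 10, Nptx2 as higher among them, had an unadjusted p below 0.05 (3 by an ordinary t statistic). Of all 947 tested, 242 met that mark in limma and 157 by an ordinary t statistic, in either direction. The median over genes was −0.28, with all 6 brightest probe sets below 0, that of Grip1 within background on all arrays. Without KCl 2, Dlg3, Grip2 and Nptxr passed as lower on 1 probe set each, and without KCl 1, Nptx2 passed as higher on 1. Nptxr, the neuronal pentraxin receptor that helps gather AMPA receptors at synapses, had −0.47 ± 0.14 (limma adjusted p = 0.071) on its probe set with the smallest p and −0.23 ± 0.11 on its brightest. Nptx2, a secreted pentraxin known to respond to activity, had 0.94 ± 0.29 (limma adjusted p = 0.078) on S82649_s_at and −0.09 ± 0.20 on S82649_r_at. Other log2 changes in the list were −0.66 ± 0.20 for Dlg3 and −0.23 ± 0.11 for Dlg4, which encode postsynaptic scaffold proteins, and −0.33 ± 0.13 for Grip2, whose product binds the tails of GluA2 and GluA3.

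Among 10 genes for kinases and phosphatases known to act on AMPA receptors, 1 of 18 probe sets passed, as lower. Of all tested probe sets, 5.28% were called lower, a share close to that of this list. Prkcb, a protein kinase C gene, fell on K03486_s_at to 1175.7 and 1113.2 on the KCl arrays, against 1629.9 and 1507.0 on the control arrays (log2 change −0.45 ± 0.11; limma adjusted p = 0.038). Its other 2 probe sets had −0.16 ± 0.10 and −0.15 ± 0.12. The call was lost with quantile normalization, with the median as each array's centre, with no filter on dim probe sets, with the replicate number as a block, without the intensity trend, by an ordinary t statistic, and without control 1 or control 2. Without KCl 2, Prkar2b, a protein kinase A subunit gene, passed as lower as well. Camk2d, a calcium/calmodulin-dependent kinase gene, came next with −0.36 ± 0.11 (limma adjusted p = 0.075) on its brightest probe set. Its dimmer probe sets had −0.14 ± 0.29, −0.06 ± 0.32, 0.36 ± 0.31 and, within background on all arrays, −0.77 ± 0.86. The median over the 10 genes was −0.19.

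Markers of the cells in these cultures moved beside the receptor genes in different ways. General neuron markers had a median log2 change of −0.07 over 9 genes. Snap25, a gene of vesicle fusion, was the 1 neuron marker that passed as higher, on 1 of its 4 probe sets. That was 1 of 17 neuron marker probe sets, against 5.49% of all tested called higher. The other Snap25 probe sets were also above 0, with log2 changes of 0.32, 0.27 and 0.26. Syp, the synaptophysin gene, had −0.29 ± 0.10 (limma adjusted p = 0.12). The summed intensity of the neuron markers ran from 30836 to 31445 on the KCl arrays and from 32421 to 33721 on the control arrays. Of 5 genes listed as inhibitory neuron markers, 3 passed as lower (Sst, Slc32a1 and Gad1). They did so on 4 of the 7 probe sets of the list, against 5.28% of all tested called lower. Npy (0.23 ± 0.16) and Cck (0.11 ± 0.10) did not pass, and both had each KCl value above each control value. With Cck included, the list summed to between 10096 and 10729 on the KCl arrays and between 15103 and 15204 on the control arrays. Cck, a large part of those sums, had 7002.8 and 7027.9 on the KCl arrays and 6310.8 and 6729.1 on the control arrays. Astrocyte markers passed as higher in 6 of 7 genes (Apoe, Slc1a3, S100b, Vim, Glul and Gja1), on 9 of 15 probe sets. Their sums ran from 9974 to 12551 on the KCl arrays and from 5220 to 5484 on the control arrays. Slc1a2 was within background on all 4 arrays. Oligodendrocyte lineage markers summed to between 561 and 639 on the KCl arrays and between 575 and 617 on the control arrays, with Mbp, Mog and Pdgfra within background. Of 9 genes listed for microglia only 2, Ccl2 and Itgam, were tested, and both were within background, so microglia were hardly assessed. Without control 1, and likewise without control 2, Sst was the 1 gene of these marker lists that still passed. Among astrocyte markers, Vim and Gja1 did not pass with quantile normalization, with no filter on dim probe sets or without KCl 1, Gja1 did not with the dimmest 50% left out, and Vim, Gja1 and Glul did not with arrays centred on the median or with the replicate block. Without the intensity trend no astrocyte marker passed, and of the neuron and inhibitory neuron markers only Slc32a1 and Sst did. By an ordinary t statistic none of these markers passed, and neither did any other of the 947 probe sets tested. Snap25 was also lost with dim probe sets kept and with the replicate block, Syp passed as lower with quantile normalization, and Map2 passed as higher without KCl 2. The part of cell makeup in the receptor values was not tested.

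**Figure D4:**
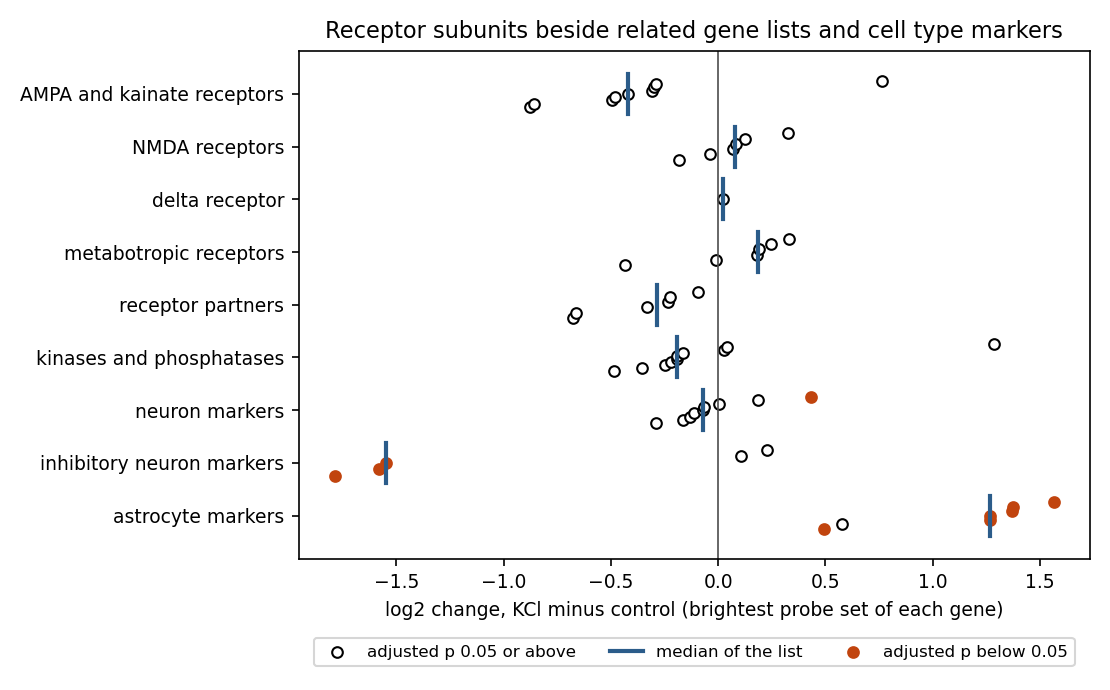
Log2 change (KCl minus control) of the brightest probe set of each gene, for the receptor genes and for related lists and cell type markers (rows). Filled points had a limma adjusted p below 0.05, open points did not, and bars are list medians. All 9 receptor points are open and 8 lie below 0, while filled points appear in the neuron, inhibitory neuron and astrocyte marker rows.

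The genes with intensities most like those of Gria1 and Gria2 were sought by the distance between log2 values centred on their own mean over the 4 arrays, among 570 genes. Nearest to Gria1 were Mprip, Kcnd3 and Faim2, at distances of 0.081, 0.093 and 0.10 log2 units. Nearest to Gria2 were Syn2, Syt3 and Glra2, at 0.033, 0.064 and 0.072. Of these, Faim2, which encodes an inhibitor of Fas-induced cell death, passed as lower (log2 change −0.51 ± 0.11; limma adjusted p = 0.023; 0.21 without control 1 and 0.21 without control 2), and Syn2, a synapsin gene, had 617.5 and 766.4 on the KCl arrays against 1011.7 and 859.5 on the control arrays. The call of Faim2 was also lost with quantile normalization (limma adjusted p = 0.056), with the replicate block (0.061) and without the intensity trend (0.17). By an ordinary t statistic its adjusted p was 0.26. With 4 arrays in 2 groups, such likeness describes these arrays only.

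Promoter sequence from RefSeq (build GRCr8) was at hand for 6 of the 9 genes, Gria4 and Grik1 to Grik5, and was searched on both strands in the 250 bases before the annotated start for motifs of factors that respond to calcium or cAMP signals and for the GC box. The full cAMP response element (TGACGTCA) and the AP-1 motif (TGANTCA) were in 0 of 6, against 1.59% and 6.34% of 33469 promoters of the same length. The cAMP response element half-site (TGACG, also contained in the full element) was in 1 of 6, that of Grik2, against 18.2% of all. The GC box (GGGCGG; overlaps between its copies were allowed), a motif of many promoters without a TATA box, was in 2 of 6, Grik3 and Grik5, against 30.5% of all. The windows of Grik2, at chr20:54415284-54415533, and Grik5, at chr1:89794910-89795159, both on the minus strand, are shown because these were the kainate genes with a single probe set that stayed above background on all arrays, 5′ to 3′ along the gene with the half-site or GC box in capitals.
Grik2: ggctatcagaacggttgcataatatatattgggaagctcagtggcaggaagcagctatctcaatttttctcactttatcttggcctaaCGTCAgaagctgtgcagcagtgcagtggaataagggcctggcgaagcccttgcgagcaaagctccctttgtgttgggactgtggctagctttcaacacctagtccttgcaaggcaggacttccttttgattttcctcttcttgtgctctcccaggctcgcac
Grik5: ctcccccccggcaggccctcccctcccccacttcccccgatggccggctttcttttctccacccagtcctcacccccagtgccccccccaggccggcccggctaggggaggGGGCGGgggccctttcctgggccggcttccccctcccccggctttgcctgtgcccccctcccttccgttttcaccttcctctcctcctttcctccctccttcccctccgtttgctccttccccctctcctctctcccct
The Grik2 half-site runs from 162 to 158 bases before the start, on the opposite strand, and the Grik5 GC box from 139 to 134. A match describes these letters and shows no binding. The Grik5 window is 70.8% G and C, and that of Grik2 is 49.6%.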

How the data were processed

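Biotin-labelled cRNA from 4 samples was hybridized to 1-colour Affymetrix arrays, per the labels' protocols. The authors deposited linear intensities, 1 per probe set and array; how probes were combined and scaled is not given in the sources used here. Trimmed means (2%) lay between 502.0 and 502.4, so intensities were used as deposited and taken to log2. Of 1322 probe sets, 59 are Affymetrix controls. Of the other 1263, the platform annotation gives 1 symbol to 1137, several to 8 and none to 118. The dimmest 25% by mean (316) were left out, and 947 were tested.

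KCl was compared with control by limma 3.58.1 in R 4.3.3 (lmFit, eBayes with an intensity trend), two-sided, with Benjamini-Hochberg adjustment over all 947 and a call at an adjusted p below 0.05. Intervals are 95% and unadjusted. Ratios of same-gene probe sets were fitted likewise over 418 pairs. The fits were tested on simulated data. Named were all members, the genes of each list that passed or had the 2 smallest p, and the 3 nearest genes to Gria1 and Gria2; of the treatment checks Fos, Junb, Nr4a1 and Bdnf, Fos is given. Other list genes were named after their values were seen. Members and lists were chosen with earlier results of these data known. The number of arrays limits the precision.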

Additional observations from a re-analysis of the deposited data

How the results depend on the processing

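Of 184 member log2 changes under 12 alternatives, 177 kept their direction and stayed on the same side of the threshold, 4 came to pass it, and 3 turned direction. The turned ones were Gria1 X17184_at, with −0.39 without control 2 and −0.33 without KCl 2, and Gria4 S94371_at, with 0.39 without KCl 2. All were on probe sets with values within background. With 1 array left out, the log2 changes of these probe sets ran from −0.39 to 0.70 and from −2.36 to 0.39. A turn was possible only with another normalization, the pseudocount or an array left out. Another filter, the block, no trend and the ordinary t statistic leave the log2 change itself as it was. Members called lower numbered 0 to 2 with 1 array left out, and members called higher 0 to 1. Without KCl 1, Gria1 M36418_s_at (adjusted p = 0.011) and Grik4 X59996mRNA_s_at (adjusted p = 0.031) passed as lower and Grik3 (adjusted p = 0.049) as higher; without KCl 2, Gria2 M38061_at passed as lower (adjusted p = 0.0080); without control 1 or control 2, 0 of 16 passed. Over all alternatives the adjusted p of Gria1 M36418_s_at ran from 0.011 to 0.32 and that of Gria2 M38061_at from 0.0080 to 0.45. With 1 array left out, the lone array of its group is assumed to vary like the other group, and the cause of these differences was not tested. At an adjusted p below 0.1, 2 members passed as lower, Gria1 M36418_s_at and Grik2.

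Over all probe sets, 50 were called lower and 52 higher. The number called lower was 31 with quantile normalization, 33 with dim probe sets kept, 82 at an adjusted p below 0.1 and 1 to 106 with 1 array left out. The number called higher was 10 to 72 with 1 array left out. Without the intensity trend 18 were higher and 3 lower, and an ordinary t statistic called 0 (157 at an unadjusted p below 0.05, against 242 in limma). Same-gene pairs called were 1 in the main model, 0 without the trend and 0 by an ordinary t statistic (50 and 46 at an unadjusted p below 0.05), and 0 to 15 with 1 array left out. The change of the Gria1 to Gria2 log2 ratio, under alternatives chosen after seeing the data, was −0.36 to 0.20 with 1 array left out, −0.05 with quantile normalization and −0.22 with the other Gria2 probe set. With the replicate number as a block, 15 were called lower, 0 members passed and 0 same-gene pairs were called. Replicate differences of the groups had a correlation of −0.03 over all tested probe sets. With 1 difference per group, that value cannot decide whether arrays of the same number are paired.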
